A study of Mus musculus with 8 samples.

Results

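DNA methylation writers and erasers are the enzymes and cofactors that add a methyl group to cytosine in DNA, keep it through replication, or start its removal. The set comprised 9 genes: the DNA methyltransferases Dnmt1, Dnmt3a and Dnmt3b, their cofactors Dnmt3l and Uhrf1, the dioxygenases Tet1, Tet2 and Tet3, and the thymine DNA glycosylase Tdg. Its members were all non-control probes of the array that carried one of these gene names, which gave 20 of 55681 probes, for 9 of 36163 gene names. Writers (5 genes) held 8 probes, Tet genes (3 genes) held 9 and Tdg held 3.

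The cells were of the mouse ES line E14Tg2A (129/Ola strain), 1 cell line for all groups, taken through neural differentiation in a defined medium. ES cells (0 days in vitro, DIV) grew in serum with LIF, epiblast-like aggregates (ELA, 2 DIV) floated in a defined minimal medium with N2 and B27, neural progenitor cells (NPC) were taken at 6 DIV from the dissociated aggregates plated on poly-ornithine and laminin, and neural precursors (NPC/Neu) at 10 DIV after replating without B27. At each stage 1 array measured total RNA and 1 array measured Ago-RNA, the RNA that came down from the cytosol with an antibody against all Argonaute (Ago) proteins, so there were 8 one-color Agilent arrays. No such fractionation is stated for total RNA, so a ratio between them can also hold a difference between cytosol and nucleus. RNA of 3 independent experiments was pooled before each hybridization. With 1 array per condition, no difference between conditions has a replicate check, no p-value is given, and n is 1 for every value. Probes of other genes printed in 10 spots gave the only error available, a within-array spread called spot SD. Control immunoprecipitations with unspecific antibody were not used here.

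Dnmt3a and Dnmt3b place new methyl groups, and Dnmt3l, which has no catalytic activity of its own, stimulates them. Dnmt1 copies methylation to the daughter strand, guided there by Uhrf1, which recognizes hemimethylated sites after replication. Tet enzymes oxidize methylcytosine, and Tdg excises the further oxidized bases for repair. In the early embryo the passage from the naive to the primed epiblast goes with a rise of DNA methylation across the genome. Argonaute proteins carry microRNAs (miRNAs), which pair through their seed with matching sites that lie mostly in the 3′ UTR of mRNAs.

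Signals are log2 normalized intensities. Ago enrichment is the log2 Ago-RNA signal minus the log2 total RNA signal of a probe at one stage, so that 1 is a 2-fold excess in Ago-RNA. A change is the later stage minus the earlier one, and rose or fell is used for a log2 difference of at least 1, which is a description of these arrays and not a test. Levels are compared for the same probe only. The spot SD of Ago enrichment was 0.0787 to 0.107 across stages, that of total RNA changes was 0.0930 to 0.118, and that of changes in Ago enrichment was 0.115 to 0.138. In bulk samples, fewer cells of a type and less RNA per cell cannot be told apart. Stage markers followed the labels: all 6 ES markers were highest in ES total RNA, all 3 ELA markers in ELA, and 3 of 4 measured neuronal markers in NPC/Neu, whereas Neurod1 was highest in ES. Of the 4 NPC markers 1 was highest in NPC and 3 in NPC/Neu. Of other cell types, 1 or 2 of 4 endoderm markers were well above background at a stage (Gata4 and Sox17 in 3 of the 4 total RNA samples each, Gata6 and Afp in 0), 1 of 3 mesoderm markers (T, but not Mixl1 or Myf5), 1 or 2 of 2 glial markers and both fibroblast markers (Col1a1 and Col1a2), and their part in the results was not tested. Signal of the upper quartile of probes ranged from 1060 to 3039 across arrays, the highest on the ES Ago-RNA array, and 53.4% to 61.2% of spots were well above background.

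Sequences of 2 miRNA families are shown first, because their sites are a property of the mRNAs that the array signals did not use. Of 8 families searched, the miR-29 family is shown because its sites were the most numerous in these genes. The family of miR-291a-3p and miR-294-3p, from the miR-290 cluster, is shown because all 3 Tet genes and no other member held its site. Both choices were made after the counts were seen. Seeds (bases 2 to 8) are in capitals, and the sequences are RefSeq's, on GRCm38.p6. Both miR-29 members share 1 seed, and miR-291a-3p and miR-294-3p, which belong to the ES cell miR-290 cluster, share another. Any other miRNA with the same seed would match the same site.
mmu-miR-29a-3p: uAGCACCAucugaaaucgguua
mmu-miR-29b-3p: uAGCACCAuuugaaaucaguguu
mmu-miR-291a-3p: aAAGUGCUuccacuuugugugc
mmu-miR-294-3p: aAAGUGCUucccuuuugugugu
In the longest annotated 3′ UTR of each gene (mm9, sense strand), the miR-29 site TGGTGCT was present 7 times in Tet1, 5 times in Tet2, 8 times in Tet3, 3 times in Tdg, 5 times in Dnmt3a and 1 time in Dnmt3b. Dnmt1, Dnmt3l and Uhrf1 held 0. These 7 letters occur in 12.4% of the 3′ UTRs of all 19915 genes. Among UTRs of like length (0.8 to 1.25 times that of the gene, the gene itself included), as many sites were held by 0.637% for Tet1, 0.0954% for Tet2, 0.195% for Tet3, 0.270% for Tdg and 1.62% for Dnmt3a, but by 12.5% for the single site of Dnmt3b. The site AGCACTT of miR-291a-3p and miR-294-3p, in 13.4% of all UTRs, was present 2 times in Tet1, 1 time in Tet2 and 3 times in Tet3. It was present 0 times in every writer and in Tdg. As many sites as in Tet1, Tet2 and Tet3 were held by 26.1%, 30.3% and 6.24% of UTRs of like length. Other members of the miR-290 cluster were not searched, so these counts do not cover the whole cluster. The other families searched were miR-9-5p, let-7a-5p, miR-22-3p, miR-101a-3p, miR-26a-5p and miR-148a-3p, with 0 to 2 sites in a gene. Of these, the miR-26a-5p site TACTTGA was present 2 times in each Tet gene, 1 time in Tdg and in Dnmt3a, and 0 times in the other writers, and the miR-148a-3p site TGCACTG 1 time in Dnmt1 and in Uhrf1, 2 times in Tdg and 0 times in the Tet genes. A match is a description of letters and not a shown binding site, and miRNA levels were not analysed here. Sequences of miR-302a-3p and miR-124-3p were not available, so it was not checked whether either shares a seed searched here. If one does, the counts of that site hold for it as well. Examples follow, with the site in capitals.
Tet1, miR-29, chr10:62274947-62274975, minus strand: accatagagtcTGGTGCTttcccccgggt
Tet1, miR-291a-3p and miR-294-3p, chr10:62274623-62274651, minus strand: atattttaaaaAGCACTTtctacttttaa
Tet3, miR-29, chr6:83317968-83317996, minus strand: gagctgctctgTGGTGCTtttgccctcat
Tet3, miR-291a-3p and miR-294-3p, chr6:83317827-83317855, minus strand: tcttcttccccAGCACTTtgaagaaacta
Tdg, miR-29, chr10:82112239-82112267, plus strand: cctgtttaaacTGGTGCTgtgtacatggg
Dnmt3b, miR-29, chr2:153512352-153512380, plus strand: gtagcccggcaTGGTGCTcatgttctctt
These 6 sites all lie in annotated 3′ UTR. The 3′ UTRs differ in length, with 273 bases in Dnmt3l, 315 in Dnmt1, 984 in Uhrf1, 1331 in Dnmt3b, 2079 in Tdg, 3058 in Tet2, 5669 in Tet3, 6696 in Dnmt3a and 7962 in Tet1.

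Of the 20 probes, 16 were well above background on all 8 arrays. Tet2 probe 2 had an irregular spot on the NPC Ago-RNA array and has no value there. Probes are numbered from the 3′ end of the gene, and 6 of 20 had a near-identical copy elsewhere in the genome (at least 95% identity over at least 50 bases), so their signal could include another transcript. The sense probes below mark the coding probe of Dnmt1, the coding probe of Tet1 that lies farthest from its 3′ end, and a Tet2 probe that lies outside every annotated exon.
Dnmt1, spanning chr9:20711973-20712341, coding sequence across a splice junction: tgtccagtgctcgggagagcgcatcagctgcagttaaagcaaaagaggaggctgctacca
Tet1 probe 3, chr10:62301856-62301915, coding sequence: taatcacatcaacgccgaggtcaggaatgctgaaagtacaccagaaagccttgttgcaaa
Tet2 probe 3, chr3:133176420-133176479, intron: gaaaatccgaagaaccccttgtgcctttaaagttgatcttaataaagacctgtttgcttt

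**Figure D1:**
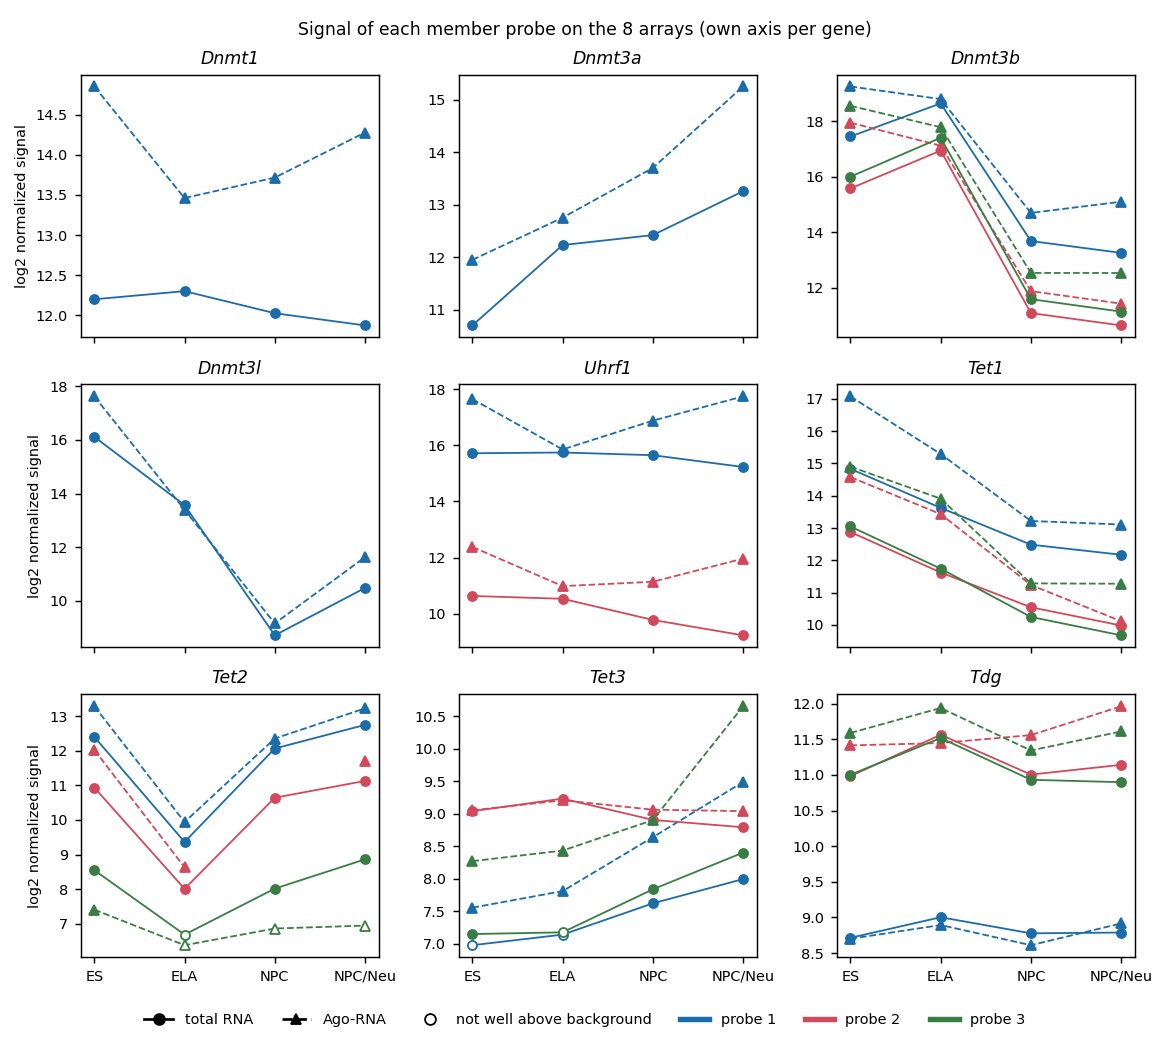
Log2 normalized signal of each of the 20 member probes on the 8 arrays, by stage, with an own vertical axis for each gene. Circles on solid lines are total RNA, triangles on dashed lines are Ago-RNA, colors are probes, and open symbols are values not well above background. Dnmt3b total RNA peaks in ELA, Tet1 falls over the series, and Tet2 dips in ELA.

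Dnmt1, the maintenance methyltransferase (chr9:20711650-20757317, minus strand), kept nearly the same total RNA over the series while its share in Ago-RNA varied. Its total RNA signal was 12.20, 12.30, 12.03 and 11.87 in ES, ELA, NPC and NPC/Neu. Its Ago-RNA signal was 14.85, 13.46, 13.72 and 14.28 at the same stages. Ago enrichment was thus 2.65, 1.16, 1.69 and 2.40 in ES, ELA, NPC and NPC/Neu, which is a 6.27-fold excess in ES and a 2.23-fold excess in ELA. Only 0.0890% of the probes tested in ES had an Ago enrichment as high. The change from ES to ELA was -1.49, with a total RNA change of 0.10, and 1.52% of tested probes had a change as low.

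Dnmt3a (chr12:3806007-3914443, plus strand), a de novo methyltransferase, was the one writer whose total RNA rose from ES to NPC/Neu. Its 3′ UTR probe measured 10.70, 12.23, 12.42 and 13.26 in total RNA from ES to NPC/Neu, an increase of 2.55 or 5.87-fold. In Ago-RNA it measured 11.95, 12.75, 13.70 and 15.25. Ago enrichment was 1.25, 0.52, 1.28 and 1.99 in ES, ELA, NPC and NPC/Neu. The difference of -0.73 between ES and ELA was the smallest in size among the writers and did not reach 1.

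Dnmt3b (chr2:153475186-153513466, plus strand), the other de novo methyltransferase, rose from ES to ELA in total RNA and then fell steeply. Probe 1, at the end of the 3′ UTR, measured 17.46, 18.65, 13.69 and 13.26 in total RNA, and 19.26, 18.81, 14.70 and 15.10 in Ago-RNA. Over its 3 probes the mean total RNA change was 1.32 from ES to ELA and -5.55 from ELA to NPC, a 46.8-fold fall. Ago enrichment in ES was 1.80, 2.37 and 2.56 at probes 1 to 3, and in ELA it was 0.16, 0.18 and 0.38. All 3 probes therefore fell in Ago enrichment, with changes of -1.65, -2.20 and -2.17, while total RNA rose at each. In NPC/Neu the probes disagreed, with 1.85 at probe 1, 0.78 at probe 2 and 1.39 at probe 3. Probe 3 matched the gene model Gm14490 (chr2:153555606-153555665) exactly and Dnmt3b with 1 mismatch, so its source is uncertain.

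Dnmt3l (chr10:77504692-77526367, plus strand), the catalytically inactive partner of the de novo enzymes, fell in total RNA at ELA already. Its probe measured 16.12, 13.57, 8.71 and 10.48 in total RNA and 17.63, 13.40, 9.15 and 11.63 in Ago-RNA. Total RNA changed by -2.55 from ES to ELA and by -4.86 from ELA to NPC, and was 49.8-fold lower in NPC/Neu than in ES, with a rise of 1.77 between the last stages. Ago enrichment was 1.51, -0.17, 0.44 and 1.15 in ES, ELA, NPC and NPC/Neu. The change of -1.68 from ES to ELA thus came with falling total RNA, unlike that of Dnmt3b.

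Uhrf1 (chr17:56442744-56462909, plus strand), which directs Dnmt1 to replicated DNA, had total RNA at probe 1 of 15.72, 15.74, 15.65 and 15.23 in ES, ELA, NPC and NPC/Neu. Ago-RNA at the same probe was 17.65, 15.85, 16.88 and 17.74. At probe 2 total RNA was 10.63, 10.53, 9.78 and 9.23, with a change of -1.40 from ES to NPC/Neu. Ago-RNA at probe 2 was 12.38, 10.98, 11.14 and 11.96. Ago enrichment was 1.93, 0.11, 1.23 and 2.52 at probe 1 and 1.75, 0.45, 1.36 and 2.73 at probe 2. Both probes fell from ES to ELA, with changes of -1.82 and -1.30, and both rose from NPC to NPC/Neu, by 1.28 and 1.37. NPC/Neu, not ES, was the stage of highest Ago enrichment for this gene. Near copies of probe 1 on chromosomes 16 and X differ from it by 3 and 2 bases. A near copy of probe 2 on chromosome X aligns over 54 bases, with 1 mismatch.

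**Figure D2:**
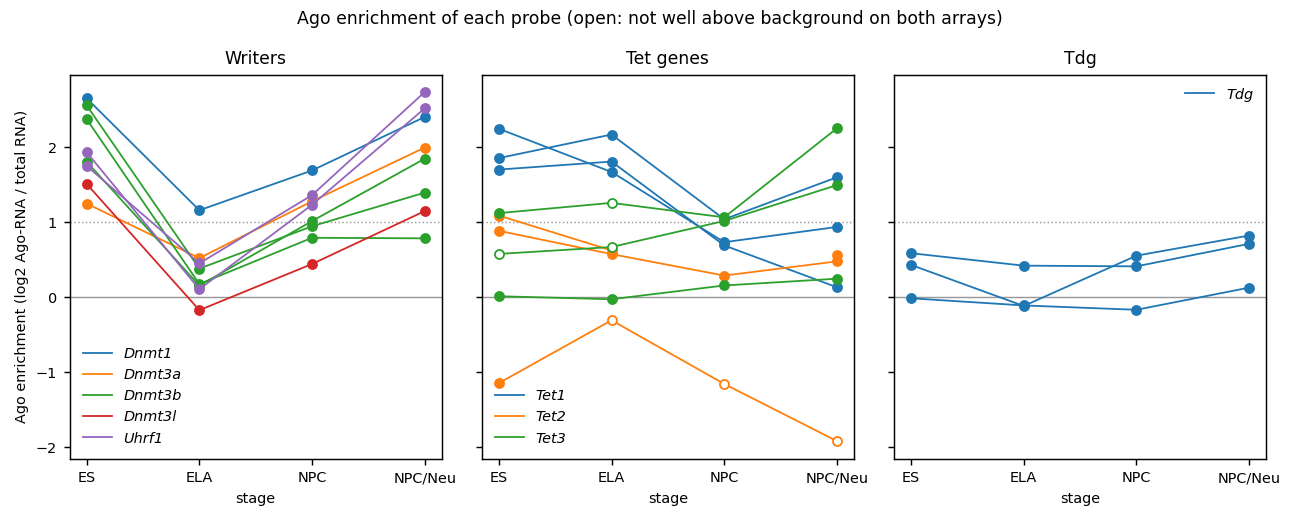
Ago enrichment (log2 Ago-RNA over total RNA) of each probe by stage, in panels for writers, Tet genes and Tdg. Lines join a probe's values, colors are genes, open symbols mark values for which an array was not well above background, and the dotted line is a 2-fold excess. Every writer probe is lower in ELA than in ES, while the 3 Tet1 probes lie between 1.67 and 2.17 in ELA.

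Tet1 (chr10:62267318-62361866, minus strand), a dioxygenase abundant in pluripotent cells, stood above 1 in Ago enrichment at every probe in ELA while its total RNA fell. Probe 1, in the 3′ UTR, measured 14.83, 13.62, 12.48 and 12.17 in total RNA, and 17.08, 15.29, 13.22 and 13.11 in Ago-RNA. The 3 probes changed in total RNA by -2.66, -2.90 and -3.37 from ES to NPC/Neu, and the mean was 7.86-fold lower. Ago enrichment in ES was 2.24, 1.70 and 1.85 at probes 1 to 3, and in ELA 1.67, 1.81 and 2.17. The ES to ELA differences of -0.58, 0.11 and 0.31 did not have 1 sign and none reached 1. Of all probes tested in ELA, 0.310% reached the value of probe 3. Ago enrichment then stood at 0.73, 0.69 and 1.04 in NPC, with differences from ELA of -0.93, -1.12 and -1.13. In NPC/Neu the probes spread from 0.13 to 1.60.

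An array feature without a gene name (chr10:62267317-62269871, reverse strand) overlaps the 3′ end of Tet1 and was the nearest of 15332 gene names to Tet1 in its pattern over the 8 arrays, with a root mean square distance of 0.23 on the log2 scale after centering. Its 3 probes are no members, since they do not carry the gene's name. Their Ago enrichment was 1.91 to 2.28 in ES, 1.43 to 1.57 in ELA, 0.35 to 0.45 in NPC, and then 0.61 to 0.82 in NPC/Neu. Their ES to ELA differences were -0.71, -0.49 and -0.45, so the probes nearest the 3′ end lay below the coding probes of Tet1 in this measure. The next gene names were Zfp953 at 0.34 and 2610021A01Rik at 0.37. Only gene names with every probe well above background on all 8 arrays were compared.

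Tet2 (chr3:133126643-133207354, minus strand) fell in total RNA in ELA and rose again in NPC. Its 3′ UTR probe 1 measured 12.40, 9.36, 12.07 and 12.75 in ES, ELA, NPC and NPC/Neu in total RNA, and 13.29, 9.94, 12.36 and 13.23 in Ago-RNA. Total RNA changed by -3.04 at probe 1 and by -2.93 at probe 2 from ES to ELA, then rose by 2.70 and 2.63. A fall from ES to ELA as large as that of probe 1 was seen for 0.215% of probes tested. Ago enrichment of probe 1 was 0.89, 0.58, 0.29 and 0.48, and that of probe 2 was 1.09 in ES, 0.62 in ELA and 0.56 in NPC/Neu. The intron probe was in deficit in Ago-RNA, with -1.14 in ES, a total RNA signal at least 2.00-fold over Ago-RNA in NPC and at least 3.75-fold over it in NPC/Neu, where Ago-RNA was not well above background. It too was at least 3.01-fold lower in ELA than in ES total RNA. The array lists the intron probe under a different transcript record from the 3′ UTR probes, and which RNA it measured was not tested.

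Tet3 (chr6:83312367-83391672, minus strand) gave weak signals, and its probes disagreed. Probe 2 measured 9.04, 9.23, 8.90 and 8.79 in total RNA, with an Ago enrichment of 0.01, -0.03, 0.16 and 0.25. Probe 1 was not well above background in ES and ELA total RNA, and was at least 2.02-fold higher in NPC/Neu than in ES. Its Ago enrichment was 1.02 in NPC and 1.49 in NPC/Neu. Probe 3 had 1.12 in ES, 1.06 in NPC and 2.25 in NPC/Neu, and in ELA its Ago-RNA was at least 2.39-fold over total RNA. All 3 probes lie in coding sequence, and the measure therefore differed by 2.00 between probes 2 and 3 in NPC/Neu. By the mean of its probes, Tet3 was most like Gng7 (0.14), Lass6 (0.15) and Slc6a6 (0.16), with its values below background included.

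Tdg (chr10:82092573-82113544, plus strand), the glycosylase, had no Ago enrichment, and no change between stages, of 1 or more in size. Total RNA at probe 1, the one without a copy elsewhere, was 8.71 in ES, 0.29 higher than that in ELA, 8.78 in NPC and finally 8.79 in NPC/Neu, and Ago-RNA was 8.70, 8.89, 8.61 and 8.92. Ago enrichment was -0.01, -0.11, -0.17 and 0.13 at that probe, 0.43, -0.12, 0.55 and 0.82 at probe 2, and 0.59, 0.42, 0.41 and 0.71 at probe 3. Probe 2 has an exact copy in Gm5806 on chromosome 15, and probe 3 has exact copies on chromosome 10, in Gm9855, and on chromosome 7.

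Writers and Tet genes were then compared by the median over genes, each gene being the mean of its probes. In ES the writers' median Ago enrichment was 1.84 and that of the Tet genes 0.57, a difference of 1.27, but the ranges overlapped because Tet1 stood at 1.93. All 8 writer probes reached 1, against 5 of 9 Tet probes and 0 of 3 Tdg probes, which made 13 of 20 members where 10.6% of all tested probes did. Without the intron probe of Tet2 the difference was 0.85, and with the processed signal it was 0.75. The Tet median is that of Tet3, whose mean in ES includes a dim value, and was also 0.57 without it. In ELA the order of the medians turned, with 0.28 for writers and 0.63 for Tet genes, but the ranges overlapped. The difference was -0.35 and ran from -0.94 to -0.11 over the alternative settings. The Tet median is again that of Tet3, with dim values in its mean. At 1 or more stood 1 writer probe (Dnmt1) and 4 of 8 tested Tet probes, where 4.98% of all tested probes did. In NPC 5 of 8 writer probes and 3 of 8 Tet probes reached 1, against a background of 5.99%. In NPC/Neu the medians were 1.99 and 0.89, a difference of 1.10, but the ranges overlapped, with Tet3 at 1.33 and Dnmt3l at 1.15. Here 7 of 8 writer probes and 3 of 9 Tet probes were at 1 or more, against a background of 12.3%.

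In the change of Ago enrichment, the medians of writers and Tet genes differed most at the ES to ELA step among the single steps. The change in Ago enrichment was between -2.01 and -0.73 for the 5 writers, with a median of -1.56, and between -0.39 and 0.06 for the 3 Tet genes, with a median of -0.05, so that the ranges did not overlap and the medians differed by -1.51. Of the probes, 7 of 8 for writers fell by 1 or more and none of 8 tested Tet or 3 Tdg probes did, where 6.70% of all tested probes fell so far and 8.56% rose so far. The median of all tested probes was 0.00. The 6.70% covers probes of any ES value, whereas every writer probe stood at 1 or more in ES. High values became rarer across the whole array: 10.6% of tested probes reached 1 in ES but only 4.98% did in ELA. By NPC/Neu the share was 12.3%, so the dip was not limited to writers. Whether writers fell further than other probes with like ES values was not tested. With the 75th percentile, 4 member probes were at -1 or lower and the writers' median was -0.95. With quantile normalization within each RNA type, Tet2 came to -0.73 and Dnmt3a to -0.68, so that the ranges overlapped there, and the sign of the Tet median also depended on scaling, with 0.06 in that setting and 0.30 with the 75th percentile. Leaving out the probes that have near-identical copies kept 14 member probes, of which 4 were at -1 or lower. Both Uhrf1 probes and Dnmt3b probe 3, which had fallen by 1 or more, were among those left out. The ES Ago-RNA array, which enters every value here, was the brightest of the 8, and its part in the result was not tested.

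From ELA to NPC the differences ran the other way for writers. All 8 writer probes had positive differences in Ago enrichment, between 0.53 and 1.12, and 5 of 7 tested Tet probes had negative ones. By gene, writers ranged from 0.53 to 1.02 and Tet genes from -1.06 to 0.11, without overlap in this or any alternative setting run. Only 1 member probe rose by 1 or more (Uhrf1 probe 1) and 2 fell as far (Tet1 probes 2 and 3), against 2.10% and 3.99% of all tested probes. From NPC to NPC/Neu 7 of 8 writer probes had positive differences, and 3 member probes rose by 1 or more (both of Uhrf1 and Tet3 probe 3) with 0 falling, against 2.44% and 4.84%. Across the whole span from ES to NPC/Neu, 1 member probe rose (Tet3 probe 3) and 4 fell (Dnmt3b probes 2 and 3, Tet1 probes 1 and 2), against 4.57% and 6.03%. Consecutive steps share an array pair, so a low value in ELA enters both the first change and the next with opposite sign.

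**Figure D3:**
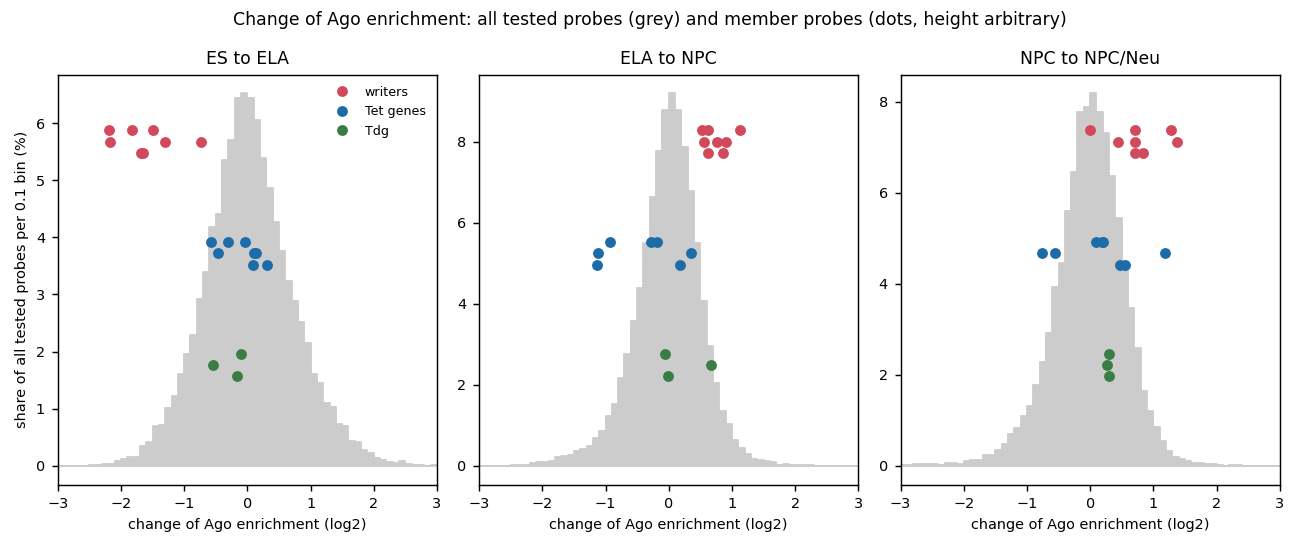
Change of Ago enrichment (log2) at each transition for all tested probes (grey, share of probes per bin of 0.1 in percent) and for the member probes tested (dots, at arbitrary height). Writers (red) lie between -2.20 and -0.73 from ES to ELA and between 0.53 and 1.12 from ELA to NPC, and Tet genes (blue) between -0.58 and 0.31 at the ES to ELA step.

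In total RNA the ranges of writers and Tet genes overlapped at every step. From ES to ELA 4 writer probes rose (Dnmt3a and the 3 of Dnmt3b) and 1 fell (Dnmt3l), and of 8 tested Tet probes 0 rose and 6 fell (the 3 of Tet1 and the 3 of Tet2), where 4.90% of all tested probes went up and 5.17% went down as far. At the ELA to NPC step 3 rose (Tet2) and 7 fell (Dnmt3b, Dnmt3l and Tet1), against 11.1% and 10.1%. From NPC to NPC/Neu 1 rose (Dnmt3l) and 0 fell, against 5.92% and 4.17%. Over the whole span 3 rose (Dnmt3a and Tet3 probes 1 and 3) and 8 fell (Dnmt3b, Dnmt3l, Tet1 and Uhrf1 probe 2), against 16.8% and 16.6%. The median change from ES to ELA was 0.10 for writers and -1.26 for Tet genes, a difference of 1.36, with ranges of -2.55 to 1.53 and -2.61 to 0.11. The writers' median change from ES to NPC/Neu was -0.95, within a range of -5.64 to 2.55, and the Tet median was 0.28, within -2.97 to 0.67. The difference of -1.23 moved to -0.24 when the brightest probe stood for each gene and to -0.61 with the 3 catalytic writers. It moved to -2.78 without the probes that have copies, a setting that leaves Uhrf1 without a probe. The size of this difference thus depended on the choice of probes and genes.

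Ago enrichment went with transcript length over all genes, and the members were therefore set beside genes of like length. The part of length in the comparison was not tested further. In ES the median was -0.29 for the 4936 genes with a longest transcript of up to 2000 bases and 1.09 for the 387 genes above 9000 bases. These medians lay closer together in ELA, at -0.17 and 0.55. By NPC/Neu they stood at -0.21 and 1.01, so long transcripts as a group also dipped in ELA. Transcripts measured 1822 bases for Dnmt3l, 3586 for Uhrf1, 4320 for Dnmt3b, 5264 for Dnmt1 and 9685 for Dnmt3a, and 9179, 14369 and 10904 for Tet2, Tet1 and Tet3. In ES 4 of 5 writers lay above the upper quartile of their length band, and Dnmt3a lay within the quartiles of 0.59 and 1.52. Of the Tet genes, Tet1 lay above those quartiles, Tet3, with a dim probe in its mean of 0.57, could not be told from the lower quartile, and Tet2 was below them at 0.28 only through its intron probe, since its 3′ UTR probes stood at 0.89 and 1.09. At the NPC stage and again at NPC/Neu all 5 writers lay above the upper quartile. In ELA Dnmt1 did and Uhrf1 stood at its upper quartile of 0.28, the other writers did not, and Tet1, at 1.88, was above an upper quartile of 0.86. For the ES to ELA change the median of the longest band was -0.55, so the Tet1 mean of -0.05 was above the upper quartile of -0.11, and 4 of 5 writers lay below the lower quartile of their own bands.

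**Figure D4:**
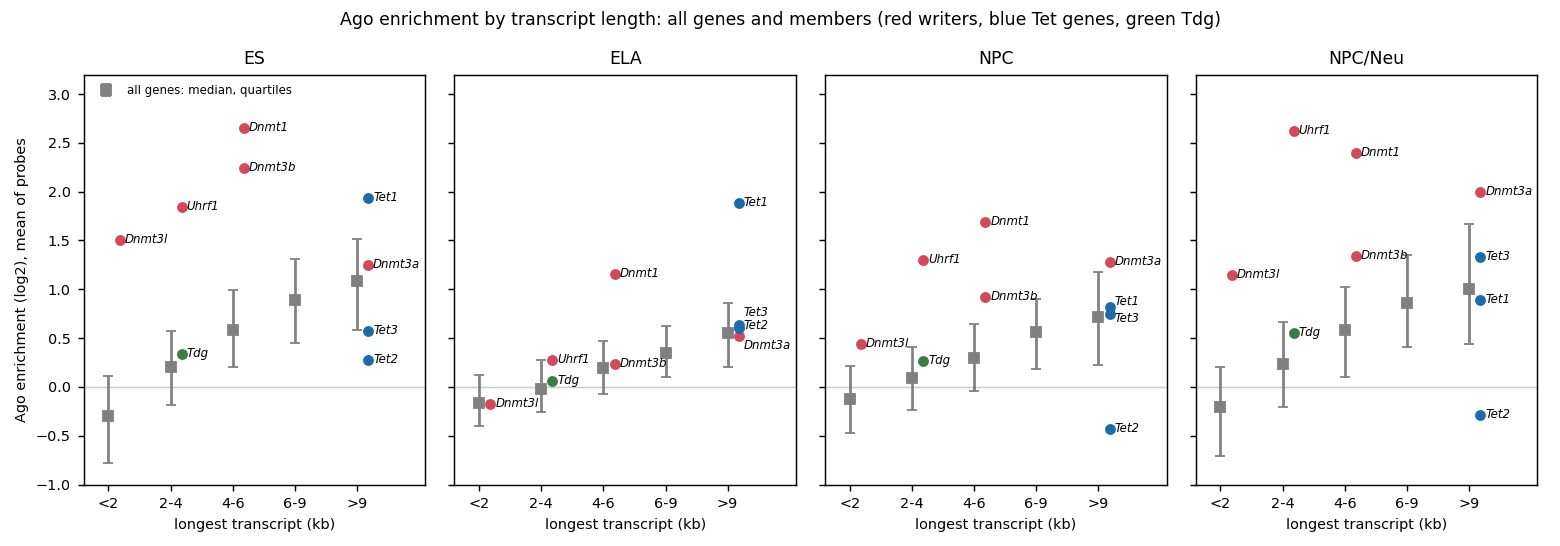
Ago enrichment (log2, mean of a gene's probes) by longest annotated transcript, in 5 length bands and 4 stages. Grey squares and bars are the median and quartiles of all tested genes, and dots are the writers (red), Tet genes (blue) and Tdg (green). The Tet2 mean includes its intron probe. In NPC/Neu all 5 writers lie above the upper quartile of their band.

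The wider pathway was described with a list of 51 genes, all on the array. In ES 14 of 50 measured genes had an Ago enrichment of at least 1 and 1 was at -1 or lower, with a median of 0.56, where 9.70% of all gene means reached 1 and their median was 0.05. Partners and recruiters of the writers accounted for 6 of the 14, led by Trim28 at 2.43, a corepressor of imprinted regions and retroelements, with Dppa3, a maternal factor that protects methylation, lowest at -1.12. Among methyl-CpG readers 1 of 9 reached 1 (Zbtb38, 1.20). In base excision repair 3 of 16 did, led by Parp1 at 1.90. Among Tet partners and cofactor enzymes 2 of 5 measured did, led by Ogt, the O-GlcNAc transferase that binds Tet proteins, at 1.44. In methyl donor supply 2 of 8 did, led by methionine synthase Mtr at 1.88.

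From ES to ELA 10 of 48 measured pathway genes fell in Ago enrichment and 0 rose, where 6.54% of all gene means fell as far. Trim28 at -2.48, Parp1 at -1.73, Mtr at -1.44 and Ogt at -1.23 were the lowest of their classes, and among readers no gene fell by 1. In NPC/Neu 8 of 47 stood at 1 or more, against 11.6% of all gene means, with Mtr at 2.03, Lig3, a DNA ligase of repair, at 1.74 and Ehmt2, a histone H3 methyltransferase, at 1.68 highest in their classes. In total RNA from ES to NPC/Neu 8 of 51 rose and 16 fell, against 16.6% and 16.6% of all gene means. Gadd45g, a stress protein linked to demethylation, rose by 3.00 and Idh2, an isocitrate dehydrogenase that yields the Tet cosubstrate, by 2.46, and Dppa3, Gadd45b and Shmt1 fell, with changes of -5.94, -2.91 and -2.82.

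Patterns most like those of other members were also listed. Dnmt1 was nearest to Birc6 (0.16), Ints1 (0.19) and Eif4g1 (0.19), and Dnmt3b to Plcg2 (0.41), Slc7a3 (0.44) and Enpp2 (0.49), over 8 arrays and 15332 gene names.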

How the data were processed

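Each array's scanner output was used as the authors deposited it, with mean and background intensities of 62976 spots per array. The file headers name Feature Extraction 10.7.3.1, and the submitters' processing notes name Feature Extraction 9.1 and limma. In limma 3.58.1 (R 4.3.3) background was corrected by normexp with an offset of 50, irregular spots (125 to 523 per array) were dropped, the 59305 non-control spots were quantile normalized over 8 arrays, and spots of a probe were averaged. No spot was saturated. Probes entered a comparison if well above background on at least 1 array of each pair. A fold against a dim value is given as a bound, from the higher of that value and the lowest signal well above background on that array, and dim values entered gene means and ranges as measured. Probes were placed on mm9 by the positions listed for the array and by match to GENCODE vM1 transcripts. GENCODE vM1 also gave UTRs and transcript lengths, and copies elsewhere were sought with BLAST 2.17.0. Members, lists and comparisons were chosen with earlier results of these data known. All member probes are named, and of pathway genes the highest or lowest of a class, except where a gene is not reported here. Likeness was taken for Dnmt1, Dnmt3b, Tet1 and Tet3 as the 3 nearest gene names, among those with every probe well above background on all 8 arrays. Genes not detected at a stage could therefore not be listed. Alternatives were other offsets, the processed signal, separate quantiles, a stricter filter, the brightest probe and catalytic writers.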

Additional observations from a re-analysis of the deposited data

How the results depend on the processing

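The values rest on 1 array per condition, so settings could be compared but no replicate could be left out. No paired analysis was possible because each group has 1 array. The writers minus Tet difference in ES Ago enrichment was 1.27, and was 1.15 and 1.07 with offsets of 16 and 0, 0.75 with the processed signal under either scaling, 1.48 with separate quantiles, 0.92 with the brightest probe and 1.67 with catalytic writers. In NPC/Neu it was 1.10, and 1.52 with the brightest probe. For the ES to ELA change it was -1.51, and -1.25 with the 75th percentile and -1.34 with the brightest probe. For total RNA from ES to NPC/Neu it was -1.23, and -1.54 with the 75th percentile, -0.24 with the brightest probe and -0.61 with catalytic writers. Member probes at -1 or lower from ES to ELA numbered 7, and 4 with the 75th percentile. In settings chosen after seeing the data, leaving out the Tet2 intron probe gave 0.85 in ES, and leaving out probes with copies gave 0.77 in NPC/Neu, -2.78 for total RNA and 4 probes. Without probes that have copies, 14 member probes remain and the writers lack Uhrf1. The 75th percentile scaling moved the median Ago enrichment of all probes by -0.34 in ES and by -0.14 in ELA, and separate quantiles moved it by 0.19 in ELA. Of 345 alternative values of members at 1 or beyond, 345 kept their sign and 334 stayed at 1 or beyond, and of 615 alternative values of the others 41 changed sign. Weak signal limits Tet3 and the Tet2 intron probe.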
